A study of Mus musculus with 12 samples.

Results

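Angiogenic and vasoactive growth factors were examined as 10 genes taken by symbol from the known ligand families: Vegfa, Vegfb, Vegfc, Pgf, Pdgfa, Pdgfb, Edn1, Adm, Hbegf and Thbs1. The 10 were chosen with earlier results of these data known, so counts over them are descriptions and not independent evidence. They stood among 56941 gene identifiers in the count table, of which 15001 had enough counts to be tested. All 10 members were among those tested. The libraries came from RAW264.7 cells, a mouse macrophage line, grown on porous culture inserts in medium with serum and antibiotics. In the compressed group, 6 samples carried an agarose cushion and a printed weight that exerted 0.14 kPa for 24 hours. In the control group, 6 samples carried the cushion alone for the same time. The comparison asks what sustained compressive stress does to transcription in macrophages. RAW264.7 is a single immortalised line cultured without tumour, endothelial or smooth muscle cells, so the receptors of these ligands on such target cells were not in the experiment. No source states that the samples of a group were separate cultures, so the p-values below speak only to sample-to-sample spread, and that spread may be technical.

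Members of the VEGF family drive the sprouting of blood and lymphatic vessels through receptor tyrosine kinases on endothelial cells, and PDGF recruits the pericytes and smooth muscle that wrap new vessels. Endothelin constricts vessels and adrenomedullin relaxes them, whereas thrombospondin restrains sprouting. Macrophages are a well known source of such ligands in wounds and tumours, and several of the genes are classical targets of the hypoxia-inducible factors (HIF).

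Library totals were 33460807 to 39103987 counts in compressed samples and 37948795 to 40463545 in controls. Levels are given as counts per 1000000 library counts (CPM) after scaling by trimmed mean of M-values (TMM), and each difference is the log2 fold change of compressed over control from edgeR's quasi-likelihood test with its standard error. A gene was called where its p, adjusted by Benjamini-Hochberg over all tested genes, did not exceed 0.05. A value in brackets beside an adjusted p is the log2 fold change. Compressed replicate 6 stood apart from the other 5 compressed libraries: it lay outside their range for 82.0% of all tested genes and for 7 of the 10 members. Values without it are given beside a number of results that it changed, though not for every gene. All 10 macrophage markers, among them Csf1r and Adgre1, passed the count filter. Their summed level was 6906 to 8247 CPM in compressed samples and 5705 to 6138 CPM in controls. Lyz2 was the most abundant of them, and without it the other 9 markers summed to 2878 to 3249 CPM in compressed samples and 3185 to 3348 CPM in controls. Of the 10 markers, 4 were called higher and 3 lower (Csf1r, Cd68 and Fcgr1), beside 24.5% and 21.9% of all tested genes. Without compressed replicate 6, 5 were called higher and 4 lower, with Spi1 as the additional lower call. That fit called 33.8% of all tested genes higher and 32.2% lower. Markers of other cell types were scarce. Endothelial markers summed to 3.50 to 7.70 CPM in compressed samples and 3.58 to 4.65 CPM in controls, with Cldn5 and Emcn at 0 in every library. Fibroblast and pericyte markers summed to 1.64 to 2.40 CPM in compressed samples and 0.848 to 1.67 CPM in controls, with Col3a1 and Rgs5 at 0. Platelet markers summed to 1.05 to 2.37 CPM in compressed samples and 0.798 to 1.12 CPM in controls. Epithelial and lymphocyte markers summed to at most 0.151 CPM in any library. The endothelial markers Pecam1 and Vwf, the pericyte marker Pdgfrb and the platelet markers Pf4 and Itga2b were called higher, and the part of these scarce transcripts in the results was not tested. As these are bulk libraries, a smaller number of cells with a transcript and less of it per cell cannot be told apart.

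Compression was accompanied by higher transcript levels of 8 of the 10 growth factors. Pgf, Edn1, Thbs1, Hbegf, Adm and Vegfa changed by more than 1 on the log2 scale, and Pdgfa and Pdgfb changed by less. Vegfb was the sole member called lower, and Vegfc did not pass the test. Of all tested genes, 46.4% were called in either direction, 24.5% higher and 21.9% lower, and 5.16% were called higher with a log2 fold change above 1, a bound that 6 of the 10 members passed. The median log2 fold change was 1.54 over the members and 0.02 over all tested genes. The lowest compressed library was above the highest control library for the same 8 members, while 33.6% of all tested genes had groups that did not overlap in either direction. Of these 8 members, Pgf and Thbs1 passed the count filter only through the compressed libraries, where they are high. Because the members were chosen with earlier results of these data known, their counts and median are descriptions only.

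**Figure D1:**
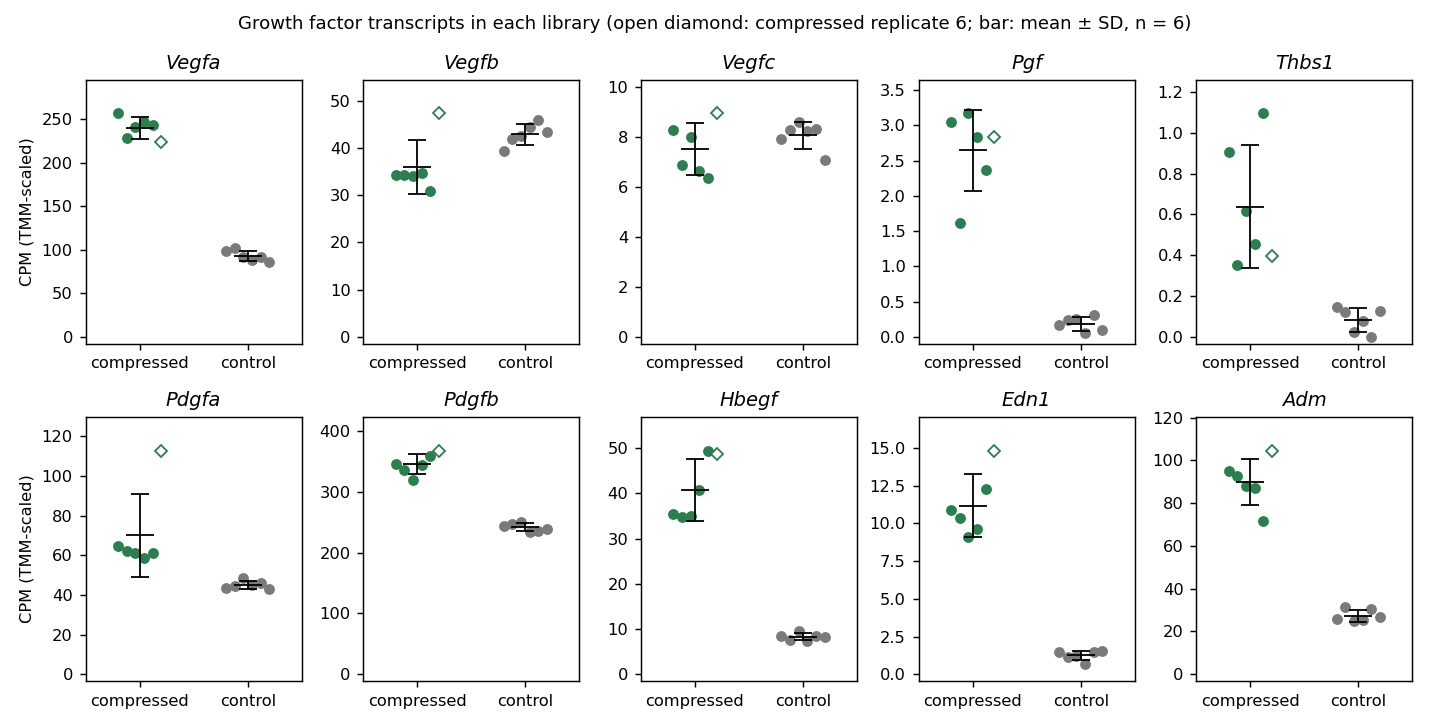
TMM-scaled CPM of each growth factor in the 6 compressed libraries (green) and the 6 control libraries (grey), with the mean and SD of each group as bars and compressed replicate 6 as an open diamond. The groups are apart for 8 genes, whereas for Vegfb the diamond at 47.4 CPM lies above every control and for Vegfc the groups overlap.

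**Figure D2:**
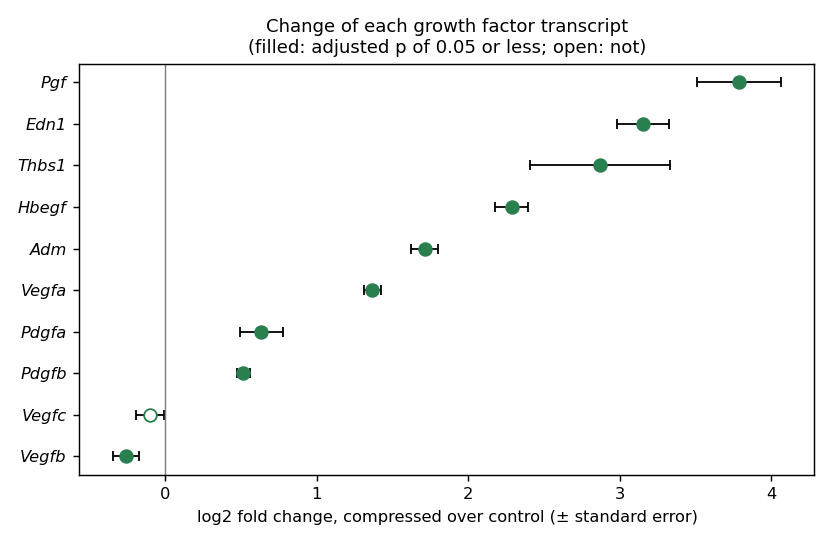
Log2 fold change of each growth factor, compressed over control, with its standard error from edgeR, ordered by size. The values run down from 3.79 for Pgf to -0.26 for Vegfb, and Vegfc is drawn open because it did not pass the threshold.

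The VEGF ligands diverged. Vegfa encodes the principal endothelial mitogen and permeability factor of the family. Its level was lowest at 224, median 242 and highest at 257 CPM in compressed libraries, against 86.1, 91.8 and 102 CPM in controls. The groups were far apart, with little spread within either. On the log2 scale Vegfa was higher by 1.37 (standard error 0.0547, adjusted p = 6.63e-10 from edgeR). Vegfb encodes a ligand of VEGFR-1 that is a weak angiogenic factor and is better known for effects on vessel survival and lipid handling. It ranged over 30.9, 34.3 and 47.4 CPM (lowest, median, highest) in compressed libraries, against 39.4, 43.0 and 45.9 CPM in controls. The highest of these values was compressed replicate 6, which exceeded every control, while the other 5 compressed libraries, at 33.7 ± 1.55 CPM (SD, n = 5), were all below every control. Over all 12 libraries the log2 fold change was -0.26 (standard error 0.0879, adjusted p = 0.0280 from edgeR) and was -0.35 without compressed replicate 6 (adjusted p = 2.09e-07 from edgeR). Leaving out instead any of compressed replicates 1 to 5, or control replicate 4 or 5, ended the call of Vegfb, at adjusted p of 0.0533 to 0.0625 from edgeR.

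Vegfc encodes the lymphatic growth factor of the family. Its level was 6.36, 7.44 and 8.94 CPM at the lowest, median and highest compressed library, against 7.06, 8.25 and 8.61 CPM in controls, and the groups overlapped. The log2 fold change of Vegfc was -0.10 (adjusted p = 0.390 from edgeR), and its 95% interval from limma-voom ran from -0.30 to 0.09. Pgf encodes placental growth factor, which binds VEGFR-1 but not VEGFR-2 and draws in myeloid cells. It was scarce, with 557 counts in all over the compressed libraries and 45 over the controls. Each compressed library held 60 to 118 counts of Pgf (1.61, 2.84 and 3.17 CPM at the lowest, median and highest), against 2 to 12 counts in each control library (0.0502, 0.206 and 0.308 CPM). No control came near the lowest compressed library. The increase of 3.79 on the log2 scale (standard error 0.277, adjusted p = 1.11e-07 from edgeR) placed Pgf 34th of the 15001 tested genes by size of increase. The ratio of its pooled counts per scaled library was 14.0, with a 95% interval of 10.3 to 19.4 that covers counting error only.

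The make-up of the VEGF ligands differed between conditions. Levels of different genes were compared per kilobase of annotated exon. Vegfa made up 68.0 ± 3.88% of the VEGF ligand transcripts in compressed libraries, against 41.9 ± 2.44% in controls (SD, n = 6 each). The ranges were 60.4 to 71.4% in compressed libraries and 39.7 to 45.2% in controls. The difference of 26.2 percentage points gave p = 0.00216 in a two-sided exact permutation test, the smallest value that 6 libraries against 6 can give, and 0.00433 when adjusted over the 2 shares tested. The share of Vegfb was 27.1 ± 3.61% in compressed libraries and 51.7 ± 2.53% in controls. Pgf, despite its large relative change, made up 1.10 ± 0.215% of the compressed transcripts and 0.125 ± 0.0634% of the control transcripts. The sum of Vegfa, Vegfb, Vegfc and Pgf was 82.3 ± 3.37 CPM per kilobase in compressed libraries and 51.8 ± 1.35 in controls. Per kilobase, Vegfa exceeded Vegfb in every compressed library, by 1.77 to 2.94 times, whereas the ratio was 0.738 to 0.936 in every control library. In CPM without division by length, Vegfa was above Vegfb in every control library too, at 86.1 to 102 CPM against 39.4 to 45.9 CPM. The order of these ligands in controls therefore rests on the annotated exon lengths. The fifth ligand, Vegfd, had 1 count in all 12 libraries together.

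**Figure D3:**
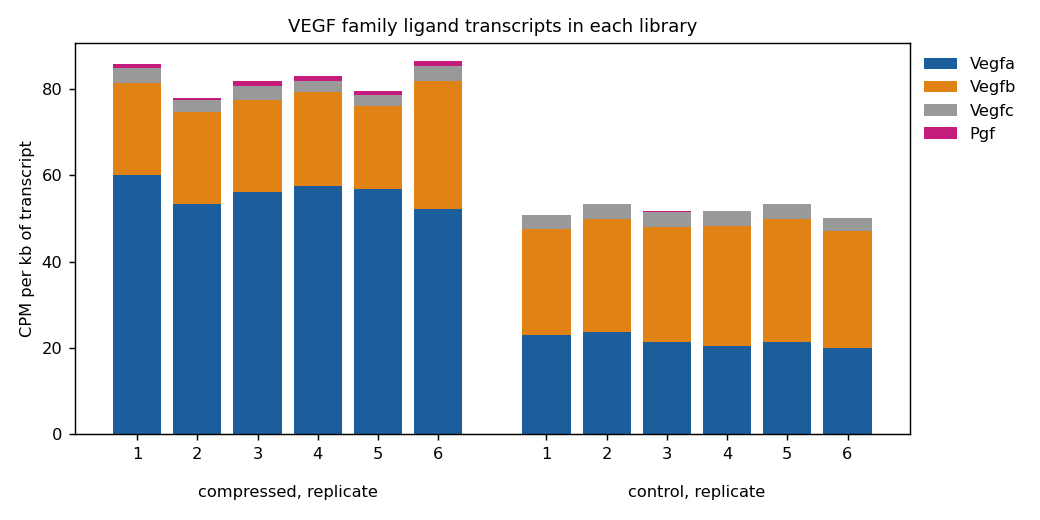
Stacked level of the VEGF family ligands in each library, in CPM per kilobase of transcript, for the 6 compressed and the 6 control libraries. The Vegfa segment is the tallest in every compressed library and the Vegfb segment in every control library.

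The 250 bases before the annotated start of Vegfa, Vegfb and Pgf are shown because these genes share a family and moved in different ways. The sequences are those of RefSeq on build GRCm38.p6, and upstream windows were matched for 7 of the 10 members. Capitals mark the HIF core, searched as ACGTG or GCGTG on both strands, with CACGT and CACGC as its reverse complements. The windows lie on the minus strand at chr17:46032378-46032627 for Vegfa, chr19:6987652-6987901 for Vegfb and chr12:85177314-85177563 for Pgf.
Vegfa: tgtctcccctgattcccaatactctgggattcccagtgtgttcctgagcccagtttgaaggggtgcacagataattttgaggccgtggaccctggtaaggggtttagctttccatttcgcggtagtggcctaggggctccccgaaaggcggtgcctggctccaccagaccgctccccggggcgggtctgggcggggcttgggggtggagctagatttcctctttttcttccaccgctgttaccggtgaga
Vegfb: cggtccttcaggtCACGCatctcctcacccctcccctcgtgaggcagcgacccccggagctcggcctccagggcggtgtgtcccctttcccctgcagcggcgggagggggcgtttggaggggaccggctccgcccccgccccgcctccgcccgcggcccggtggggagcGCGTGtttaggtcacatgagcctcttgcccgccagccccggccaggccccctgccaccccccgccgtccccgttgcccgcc
Pgf: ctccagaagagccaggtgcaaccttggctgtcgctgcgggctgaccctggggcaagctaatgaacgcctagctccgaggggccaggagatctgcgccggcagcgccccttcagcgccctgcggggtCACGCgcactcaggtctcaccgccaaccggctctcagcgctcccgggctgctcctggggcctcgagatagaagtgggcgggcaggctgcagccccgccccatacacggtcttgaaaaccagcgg
The Vegfa window held no match, the Vegfb window held 2 (starting at -237 and -81 from the start of transcription) and the Pgf window held 1 (at -124). Sequence beyond the 250 bases was not searched, so a site further from the start would be missed. A second annotated start of Pgf had no match in its window. A second annotated start of Vegfa had 2 nearby matches in its window at -218 and -211. That window, at chr17:46025164-46025413, lies within the annotated gene (46016993 to 46032369) and not before it. Among all 32851 windows of this length, 38.6% held at least 1 HIF core, so a match by itself was common. The AP-1 motif TGANTCA, searched on both strands, was in 6.75% of all windows and in 0 of the 10 member windows.

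The PDGF ligands were abundant and showed small increases. Pdgfb, whose product recruits pericytes, was at 320, 345 and 367 CPM in the lowest, median and highest compressed library, against 235, 241 and 250.1 CPM in controls. The groups did not overlap. Its log2 fold change was 0.52 (standard error 0.0436, adjusted p = 4.41e-07 from edgeR). Pdgfa, whose product acts mainly on fibroblasts and other mesenchymal cells, was at 58.4, 61.6 and 113 CPM in compressed libraries, against 43.1, 44.7 and 48.4 CPM in controls. The highest value was again compressed replicate 6, and the other 5 averaged 61.4 ± 2.18 CPM. The log2 fold change of Pdgfa was 0.63 (standard error 0.143, adjusted p = 0.00241 from edgeR) with this library and 0.44 without it (adjusted p = 7.00e-10 from edgeR). Pdgfa shares 813 of its 3119 exon bases with 6330403L08Rik on the opposite strand, which had 1708 counts in compressed libraries and 1669 in controls, so part of either signal could be counted under the other if strand was not used. The share of Pdgfb in the sum of Pdgfa and Pdgfb, per kilobase, was 79.0 ± 4.02% in compressed libraries and 80.1 ± 0.660% in controls. The difference of -1.06 points was within the spread (two-sided exact permutation p = 0.877) and was 0.55 points without compressed replicate 6 (exact permutation p = 0.251). Pdgfc and Pdgfd were close to undetected, with 6 and 1 counts in compressed libraries and 0 and 2 in controls.

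Both vasoactive peptides were higher, Edn1 by more than Adm. Edn1 encodes the precursor of endothelin-1, a potent vasoconstrictor. Its level was 9.11, 10.6 and 14.8 CPM in the lowest, median and highest compressed library, against 0.703, 1.35 and 1.52 CPM in controls. Edn1 was higher by 3.15 on the log2 scale (standard error 0.171, adjusted p = 6.92e-09 from edgeR), 67th by size of increase. Adm encodes adrenomedullin, a vasodilator that also stabilises the endothelial barrier. It was at 71.7, 90.4 and 105 CPM in compressed libraries, against 24.997, 26.3 and 31.2 CPM in controls. For Adm the difference was 1.71 on the log2 scale (standard error 0.0902, adjusted p = 5.60e-09 from edgeR), 244th by size of increase. Thus a constrictor and a dilator were both higher, with no overlap of the groups for either. Per kilobase Adm stayed the more abundant, at 55.5 in compressed libraries and 16.9 in controls, while Edn1 was at 5.23 in compressed libraries and 0.588 in controls. Edn2, Edn3 and Adm2 fell below the count filter.

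The window of Adm is shown as that of the member with the HIF core nearest to its start. It lies on the plus strand at chr7:110627407-110627656 of GRCm38.p6, with the core in capitals in its reverse complement form.
Adm: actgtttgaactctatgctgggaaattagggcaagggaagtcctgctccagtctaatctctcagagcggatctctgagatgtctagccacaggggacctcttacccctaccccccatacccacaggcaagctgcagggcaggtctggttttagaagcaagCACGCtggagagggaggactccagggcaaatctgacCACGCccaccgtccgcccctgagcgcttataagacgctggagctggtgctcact
The matches began at -90 and -54. In all, 5 of the 10 member windows held a HIF core, beside 38.6% of all 32851 windows. They came from 5 of 7 members, with Pdgfa at -231 as the fifth. Vegfa, Pgf and Pdgfa had 2 windows each, and no share per gene was computed over all genes. For Vegfa the matches lay only in the window inside the gene. The windows of Edn1 and Vegfc held none. These are matches of letters and were not tested for binding.

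Hbegf encodes a membrane-bound ligand of the EGF receptor that acts on smooth muscle and epithelium once shed. Its level was 34.8, 38.1 and 49.5 CPM in the lowest, median and highest compressed library, against 7.28, 8.42 and 9.66 CPM in controls. Hbegf was higher by 2.29 on the log2 scale (standard error 0.110, adjusted p = 2.59e-09 from edgeR), and the groups did not overlap. Within the EGF family, Areg, which encodes amphiregulin, was also higher at 1.31 ± 0.445 CPM in compressed libraries and 0.448 ± 0.0622 CPM in controls (log2 fold change 1.54, adjusted p = 6.27e-05 from edgeR). Egf was at 1.59 CPM in compressed libraries and 1.53 CPM in controls and was not called (adjusted p = 0.814 from edgeR). Tgfa, Ereg, Btc and Epgn did not reach the count filter.

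Thbs1, which encodes thrombospondin-1, the inhibitor among the members, was the scarcest. It had 132 counts over the compressed libraries and 20 over the controls. The libraries held 13 to 36 counts in the compressed group (0.350, 0.537 and 1.10 CPM at the lowest, median and highest), against 0 to 6 counts in the control group (0, 0.0984 and 0.145 CPM). The groups did not overlap, but the compressed libraries were widely spread and the standard error was the widest of the 10. Thbs1, like Pgf, passed the count filter only through the compressed libraries, where it is high. Without the filter the log2 fold change was 2.86 for Thbs1 (adjusted p = 6.74e-05 from edgeR) and 3.78 for Pgf (adjusted p = 4.24e-09 from edgeR). Thbs1 was higher by 2.87 on the log2 scale (standard error 0.462, adjusted p = 1.73e-04 from edgeR). The ratio of pooled counts was 7.47, with a 95% counting interval of 4.65 to 12.6. Thbs3, a structural relative, was lower at 1.54 ± 0.279 CPM in compressed libraries and 2.68 ± 0.325 CPM in controls (log2 fold change -0.80, adjusted p = 1.77e-04 from edgeR), and Comp was higher (0.84, adjusted p = 0.00212 from edgeR). Of 9 other genes tested from the list of endogenous inhibitors of angiogenesis, 5 were called higher and 1, Vash2, lower. Of all tested genes, 24.5% were called higher and 21.9% lower. Leaving out compressed replicate 6 gave 5 higher and 2 lower, with Cxcl10 as the additional lower call. That fit called 33.8% of all tested genes higher and 32.2% lower. Serpinf1, encoding pigment epithelium-derived factor, reached 14.4 ± 1.97 CPM in compressed libraries and 3.22 ± 0.362 CPM in controls (2.16, adjusted p = 2.35e-09 from edgeR), whereas Vash2 was lower, at 1.06 ± 0.296 CPM in compressed libraries and 2.07 ± 0.208 CPM in controls (-0.96, adjusted p = 3.45e-04 from edgeR). Vash2 is known to promote sprouting, although it was listed beside the inhibitor encoded by Vash1.

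The order of the members by level per kilobase was altered. In compressed libraries it ran Pdgfb (83.0), Vegfa (56.0), Adm (55.5), Pdgfa (22.4), Vegfb (22.4), Hbegf (8.42), Edn1 (5.23), Vegfc (3.07), Pgf (0.912) and Thbs1 (0.105). The ranges of Vegfa and Adm overlapped, as did those of Pdgfa and Vegfb. In controls it ran Pdgfb (58.1), Vegfb (26.8), Vegfa (21.7), Adm (16.9), Pdgfa (14.5), Vegfc (3.29), Hbegf (1.72), Edn1 (0.588), Pgf (0.0650) and Thbs1 (0.0136), with overlapping ranges for Adm and Pdgfa and for Pgf and Thbs1. Pdgfb was first and Thbs1 last in either condition. Hbegf and Edn1 stood above Vegfc in compressed libraries and below it in controls.

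Receptors for these ligands on the macrophages themselves were unevenly expressed. Of 24 receptor and co-receptor genes, 12 passed the count filter, with 6 called higher, 1 lower and 5 not called (median log2 fold change 0.36), against 46.4% of all tested genes called. Without compressed replicate 6 the counts were 8 higher and 2 lower of 13 tested, in a fit that called 66% of all tested genes (33.8% higher and 32.2% lower). Flt1, which encodes VEGFR-1, the receptor shared by Vegfa, Vegfb and Pgf, was at 78.8 ± 15.9 CPM in compressed libraries and 49.7 ± 2.81 CPM in controls (0.66, adjusted p = 4.75e-04 from edgeR), although the groups overlapped. Kdr, which encodes VEGFR-2, had 54 counts in compressed libraries and 54 in controls. Of the neuropilin co-receptors, Nrp2 was abundant at 981 ± 248 CPM in compressed libraries and 934 ± 33.0 CPM in controls (0.07, adjusted p = 0.743 from edgeR). Nrp1 gave a value of -0.31 (adjusted p = 0.228 from edgeR). Without compressed replicate 6, Nrp2 was called higher (0.20, adjusted p = 1.82e-04) and Nrp1 lower (-0.14, adjusted p = 0.0192 from edgeR). Lrp1 was not called with all libraries (0.49, adjusted p = 0.107) and was called higher without that library (0.67, adjusted p = 2.41e-07 from edgeR). Pdgfrb, the receptor of Pdgfb, was called higher at 0.501 ± 0.178 CPM in compressed libraries and 0.222 ± 0.0188 CPM in controls (1.16, adjusted p = 0.00198 from edgeR). Pdgfrb also stands on the list of fibroblast and pericyte markers. Pdgfra had 4 counts in compressed libraries and 8 in controls.

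For the peptides, the endothelin receptors were close to undetected. Ednra had 0 counts in compressed libraries and 2 in controls, and Ednrb had 0 in both, where 3 counts over a group would correspond to 0.0142 CPM in compressed libraries and 0.0126 CPM in controls. The adrenomedullin receptor pairs Calcrl with an accessory protein, Ramp2 or Ramp3. Calcrl was higher, at 192 ± 22.1 CPM in compressed libraries and 136 ± 7.70 CPM in controls (0.49, adjusted p = 9.76e-05 from edgeR). Ramp2 went the other way, with 0 to 3 counts in each compressed library, against 7 to 14 counts in each control library. In total there were 7 counts of Ramp2 in the compressed group and 60 in the control group. The ratio was 0.132 (95% counting interval 0.0509 to 0.289), with p = 0.00216 in a two-sided exact permutation test and 0.00649 when adjusted over Ramp2, Kdr and Ece1, the 3 receptor and processing genes below the filter with the most counts, chosen after their counts were seen. Among receptors of thrombospondin, Itgb3 was at 2.10 ± 0.491 CPM in compressed libraries and 0.615 ± 0.0731 CPM in controls (1.76, adjusted p = 1.54e-06 from edgeR). Cd47 reached 180 ± 36.8 CPM in compressed libraries and 102 ± 2.91 CPM in controls (0.82, adjusted p = 1.94e-05 from edgeR). Sdc1, a heparan sulphate proteoglycan, was the sole receptor gene above the count filter called lower with all libraries (-0.32, adjusted p = 4.87e-05 from edgeR). Egfr, the receptor of Hbegf, had 3 counts in compressed libraries and 4 in controls.

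Enzymes that mature, shed or release the ligands were mostly higher. Of 22 genes listed, which include the tetraspanin Cd9 and the protease inhibitor Timp3, 13 were tested, with a median log2 fold change of 0.56. Of these 13, 9 were called higher and 4 did not pass, beside 24.5% of all tested genes called higher. Counting enzymes alone, 8 of 12 tested were called higher, and 11 of 12 without compressed replicate 6, a fit in which 33.8% of all tested genes were called higher. Mmp14, a membrane-anchored metalloproteinase, averaged 13.0 ± 1.67 CPM in compressed libraries and 0.570 ± 0.193 CPM in controls (4.50, adjusted p = 3.19e-10 from edgeR). Mmp9, a gelatinase that frees matrix-bound VEGF, averaged 216 ± 59.2 CPM in compressed libraries and 17.1 ± 2.16 CPM in controls (3.65, adjusted p = 1.57e-09 from edgeR). Furin, which cleaves the precursors of PDGF, VEGF-C and endothelin, was at 246 ± 40.8 CPM in compressed libraries and 133 ± 8.65 CPM in controls (0.89, adjusted p = 8.44e-06 from edgeR). Pam, the enzyme that amidates adrenomedullin, was higher by 0.47 (adjusted p = 1.57e-04 from edgeR). The sheddases Adam17 (0.06, adjusted p = 0.530) and Adam10 (-0.11, adjusted p = 0.340 from edgeR) were not called. Without compressed replicate 6, Adam17 was called higher (0.14, adjusted p = 5.12e-05 from edgeR) and Adam10 was not called (-0.03). Adam9 (0.19) and Pcsk7 (0.20) were likewise called higher only without that library. Ece1, the endothelin-converting enzyme, had 45 counts in compressed libraries and 52 in controls, a ratio of 0.980 (95% counting interval 0.642 to 1.49).

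**Figure D4:**
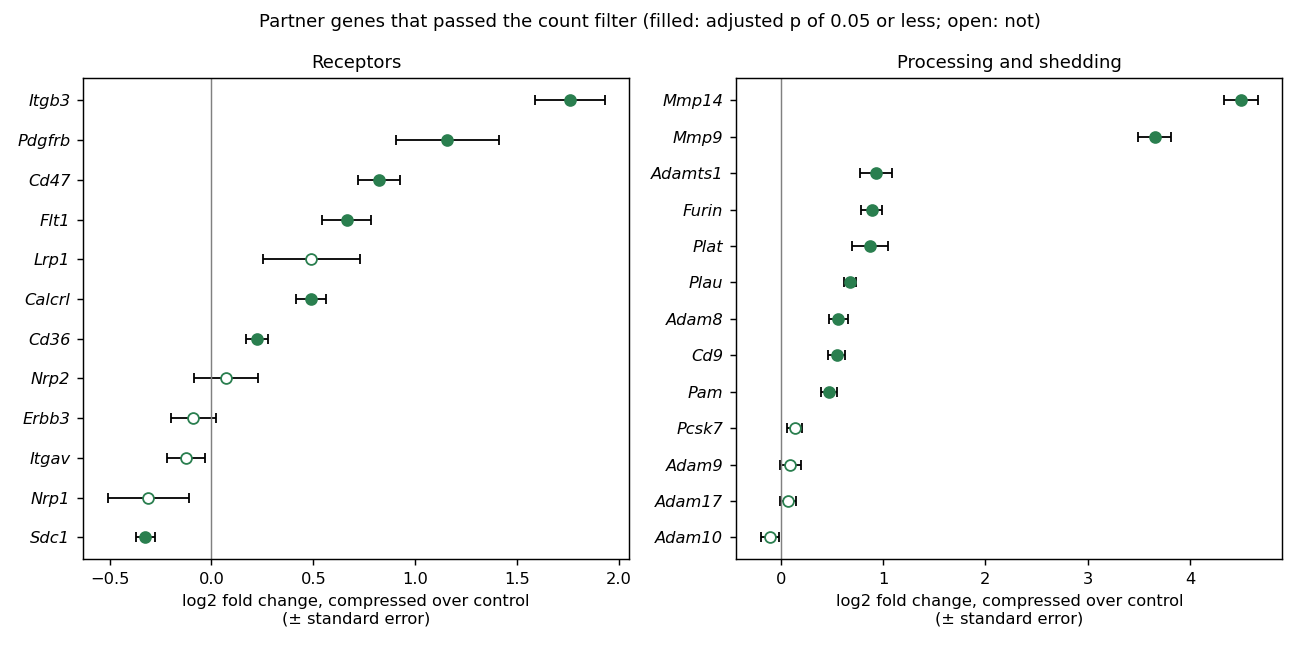
Log2 fold change, compressed over control, with standard error from edgeR, for the receptor genes (left) and the processing and shedding genes (right) that passed the count filter, filled where called. Mmp14 at 4.50 and Mmp9 at 3.65 lie far to the right, and Sdc1 at -0.32 is the called gene on the negative side.

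Vegfa, Adm, Edn1 and Pgf are known targets of HIF, so other genes of that response were listed. Of 30 HIF target genes that are no members, 28 were called higher, against 24.5% of all tested genes. The median log2 fold change of the 30 was 0.83. In the fit that left out compressed replicate 6, 29 were called higher, against 33.8% of all tested genes. With all libraries the remaining genes were Pfkfb4 (-0.06) and Kdm3a (0.18). Among the larger changes were those of Egln3, which also stands among the regulators below (4.04), P4ha2 (3.31, adjusted p = 8.31e-10 from edgeR) and Ero1a (2.26). Of 11 tested regulators of the pathway, 5 were called higher, beside 24.5% of all tested genes. These 5 were Egln3 (4.04), Egln1 (0.92), Cited2 (0.63), Vhl (0.61) and Hif1a (0.25). Without compressed replicate 6, 8 of 12 tested were called higher and 1, Egln2, lower, where all tested genes gave 33.8% and 32.2%. The list of HIF targets was chosen with earlier results of these data known and is not independent evidence of its direction. Whether HIF acted on the members was not tested.

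Within the conditions, the members were also compared with other genes over the libraries. As deviations from the group means of log2 CPM over 12 libraries, Adm was most like Zkscan14 (Pearson r = 0.93), out of 10499 genes compared. Bnip3 (0.89) and Me2 (0.89) followed. Hbegf was most like Lrrc25 (0.93) and Pdgfb most like Pld3 (0.93). The order changed without compressed replicate 6. Adm was then most like Amhr2 (0.94), with Zkscan14 at 0.94, Bnip3 at 0.92 and Me2 at 0.85. Hbegf was then most like Ebi3 (0.91), with Lrrc25 at 0.90, and Pdgfb remained most like Pld3 (0.93). Among the 45 pairs of members, 2 had r above 0.7, and these were Vegfb with Pdgfa (0.90) and Pdgfb with Hbegf (0.79). Over the 11 libraries without compressed replicate 6 they were 0.20 and 0.71. The points share libraries and scaling factors, so these values are descriptions. The genes most like a member were picked as the highest of 10499 correlations over few libraries. Whether chance gives values as high was not tested, and the genes most like the other members are not listed here.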

How the data were processed

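RNA was extracted from RAW264.7 macrophages, 6 compressed and 6 control samples, and directional libraries were prepared after mRNA enrichment. The authors deposited whole-number read counts per Ensembl gene, with no scaling. Alignment was with STAR 2.7.2 and the build GRCm39, per the submitters' processing notes. The counting program, its strand setting and the annotation release were not given in the sources used here. Gene symbols and exon lengths were taken from GENCODE M21 on GRCm38, matched by identifier for 52000 of 56941 genes, so levels per kilobase rest on lengths from another build and annotation than the counts.

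Counts were filtered with filterByExpr (minimum count 10), scaled by TMM and tested with condition alone in edgeR 4.0.16 under R 4.3.3, with Benjamini-Hochberg adjustment over all 15001 tested genes. The standard error is the log2 fold change divided by the root of its F statistic. Totals of 33460807 to 40463545 counts per library leave counting error small except for Pgf, Thbs1 and genes below the filter. Shares and genes below the filter were compared by a two-sided exact permutation test with 924 assignments. Ratios of pooled counts have 95% binomial intervals. Alternatives were DESeq2 1.42.0, limma-voom 3.58.1, DESeq2-style scaling, library size alone, no filter, a minimum of 1 CPM in 6 libraries, an adjusted p of 0.01, a replicate block, raw-count shares, and each library left out in turn. The code was tested on simulated data.

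The members and all gene lists were chosen with earlier results of these data known. All 10 members are named. From each list, up to 4 called genes of largest change, up to 2 that go against the majority, and any measured receptor or processing gene could be named. For likeness, the 3 genes with the highest correlation to each member were found. The labels number the samples of both groups alike, but no source says that the numbers pair samples, so they were not used as pairs. Deviations of same-numbered samples from their group means had r of -0.12 to 0.04. Those values cannot decide on pairing, because compressed replicate 6 weighs heavily in the deviations of its group. Differently numbered samples were not compared. No annotated promoter of Pdgfb, Hbegf or Thbs1 was used here.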

Additional observations from a re-analysis of the deposited data

Results flagged for a closer look

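In 20 groups of 6 libraries (each member in each condition), the gap of the highest or lowest library to its neighbour was set against the range of the group, and libraries past Dixon's 95% limit were taken as standing apart, which chance gives in about 1 in 20 groups. Compressed replicate 6 stood apart for Pdgfa, where the gap was 0.889 of the range (113 CPM, with the nearest compressed library at 64.5 CPM). It also stood apart for Vegfb, at 0.772 of the range (47.4 CPM, with the nearest at 34.7 CPM). It was above the other 5 compressed libraries for 6 members, below them for 1 (Vegfa) and within their range for 3 (Pgf, Hbegf and Thbs1). What sets this library apart was not tested.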

How the results depend on the processing

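The 8 members called higher were higher and past the threshold in all 151 alternatives that gave a value, from 7 other settings and 12 fits with a library left out, with a largest adjusted p of 0.00772 (Pdgfa under the replicate block). Thbs1 gave no value under the filter of 1 CPM in 6 libraries. Vegfb was between -0.35 and -0.22 when a library was left out, and the number of members called lower was 0 to 1 in those fits and 0 at an adjusted p of 0.01. The difference in the Pdgfb share lay between -1.57 and 0.55 points when a library was left out and was positive only without compressed replicate 6, at 0.55. The difference in the Vegfa share lay between 25.5 and 27.7 points in those fits and was 19.4 points on raw counts. With the replicate block, 3299 genes were called higher and 3094 lower, and 8 members were higher and 1 lower. Vegfb was still called lower, at -0.27 (adjusted p = 0.0322 from edgeR), and the block changed no call of a member. In the paired test by sign flips, the Vegfa share had an exact p of 0.0312, the smallest that 6 pairs can give. Depth limited Pgf, Thbs1, Ramp2 and the receptors near 0 counts, where differences below the counting interval were not detectable. The list counts without compressed replicate 6 and of enzymes alone, and the macrophage marker sum without Lyz2, were added after the data had been seen.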

Other observations

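Other signals that act on vessels were also higher. All 9 tested enzymes of nitric oxide and prostanoid synthesis and related vasoactive pathways were called higher, against 24.5% of all tested genes. The count was the same without compressed replicate 6, in a fit that called 33.8% of all tested genes higher. Nos2, the inducible nitric oxide synthase, averaged 371 ± 85.2 CPM in compressed libraries and 29.9 ± 5.38 CPM in controls (log2 fold change 3.63, adjusted p = 2.98e-09 from edgeR). Ptgs2, which encodes cyclooxygenase-2, averaged 2037 ± 379 CPM in compressed libraries and 179 ± 13.2 CPM in controls (3.51, adjusted p = 1.74e-10 from edgeR). Ptges, the prostaglandin E synthase, changed by 2.31 and Hmox1, which releases carbon monoxide from haem, by 1.58.

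Of 15 tested angiogenic ligands outside the members' families, 11 were called higher and 3 lower. Of all tested genes, 24.5% were called higher and 21.9% lower. The counts were the same without compressed replicate 6, in a fit that called 33.8% of all tested genes higher and 32.2% lower. Il1b (5.87), Fgf2 (2.21), Cxcl2 (2.07) and Ccl2 (1.60) had the largest log2 fold changes, and Angptl2 (-0.66) and Angptl4 (-0.49) were lower. Fgf2, a heparin-binding mitogen of endothelial cells, was at 0.883 ± 0.211 CPM in compressed libraries and 0.188 ± 0.0512 CPM in controls.

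Among 20 tested transcription factors with known roles at such promoters, 12 were called higher and 2 lower, against 24.5% and 21.9% of all tested genes. Without compressed replicate 6 these were 14 and 3, in a fit that called 33.8% of all tested genes higher and 32.2% lower. Egr2 (1.43), Atf3 (1.36), Myc (1.21) and Klf6 (1.00) were highest, and Fosl2 (-0.25) and Sp3 (-0.14) were lower. All 8 genes listed as acting on the decay of messages, mainly AU-rich ones such as that of Vegfa, passed the test. Of these, 3 were higher and 5 lower, beside 24.5% and 21.9% of all tested genes. Zc3h12a (0.69) and Zfp36 (0.48) were higher, and Zfp36l2 (-0.62) and Hnrnpd (-0.48) were lower. No test linked these factors to the growth factor transcripts.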
